A study of Mus musculus with 43 samples.

Results

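Messenger RNA of 10 marker genes of macrophages and microglia was followed through brain, liver, skeletal muscle and white adipose tissue (WAT) of mice labelled wild type or Irs1 knockout that were fed freely or restricted. The genes were taken by name (Cd68, Lyz2, Fcgr3, F13a1, Mrc1, C1qa, C1qb, C1qc, Csf1r and Tyrobp), and each of the 10 had its own entry among the 42349 entries of the deposited table. The animals were female, 15 months old, wild type (WT, Irs1+/+) or global knockouts for insulin receptor substrate 1 (KO, Irs1-/-). By its label the knockout is not limited to a cell type. AL groups ate standard chow ad libitum, and DR groups were taken in steps from 10 weeks of age to a restriction of 30%, kept for 12 months and fed once daily in the late afternoon. The 4 conditions are called WT_AL, WT_DR, KO_AL and KO_DR, and in the 4 tissues they make 16 groups. The labels list 43 libraries of poly(A) RNA, 2 for each WT_AL group, 2 for WT_DR in WAT and 3 for each other group, and WAT was the inguinal depot. The deposited table holds a single FPKM (fragments per kilobase of transcript, scaled to mapped fragments and normalised between libraries by the authors) with a 95% confidence interval for each gene and group, so levels can be compared between genes, no value of a single mouse was used, and the depth per library is unknown.

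Tissue macrophages are long-lived phagocytes that settle in almost every organ and take on the character of their surroundings. Those of the brain are the microglia, those of the liver sinusoids are the Kupffer cells, and those of adipose tissue clear dying adipocytes and take up the lipid that these release. C1qa, C1qb and C1qc encode the chains of C1q, the recognition molecule that starts the classical complement pathway and that macrophages and microglia make themselves. Csf1r encodes the receptor through which colony-stimulating factor 1 and interleukin 34 keep these cells alive, and Tyrobp encodes DAP12, the adaptor that signals for TREM2 and related receptors. Cd68 is a glycoprotein of lysosomes and endosomes, Lyz2 is lysozyme, Fcgr3 is a low-affinity receptor for IgG, Mrc1 is the mannose receptor CD206, and F13a1 is the A subunit of coagulation factor XIII, the transglutaminase that cross-links fibrin. In bulk tissue, fewer macrophages and less RNA of a gene per macrophage cannot be told apart.

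Myeloid genes share a regulator, PU.1, an ETS factor encoded by Spi1 that binds purine-rich DNA around a GGAA core. Promoter windows from 250 bases before to 50 bases after the transcript start were used for 7 of the 10 genes (RefSeq, GRCm38.p6), with 9 windows in all. No window was held for C1qa and Tyrobp, and Csf1r was left out by choice, so the counts below do not cover these genes. The 7 letters AGGAAGT, searched on both strands, occurred in 5 of these 9 windows (C1qb, C1qc, Lyz2, Mrc1 and 1 of the 2 of F13a1), and 9.35% of all 32851 windows held it. The longer GAGGAAGT, which contains it, occurred in 2 of the 9 (C1qc and F13a1) and in 3.2% of all windows. The shorter GAGGAA, which overlaps the other 2, occurred in 8 of the 9 and in 28.3% of all windows. TGACTCA, the letters of an AP-1 site, occurred in 1 of the 9 (Cd68) and in 5.2% of all windows. A match describes the letters of the window and is not a binding site. The 5 windows with AGGAAGT are given to show where the letters lie, and 1 of the 2 windows of Fcgr3, without a match, because Fcgr3 and F13a1 were the members called between KO_AL and WT_AL in WAT. All 10 members were lower in WAT in KO_AL and WT_DR than in WT_AL, Cd68 and Fcgr3 without a match included. Direction therefore cannot separate genes with and without the letters, and a link between letters and values was not tested. Capitals mark AGGAAGT or its reverse complement ACTTCCT.
C1qb, chr4:136886151-136886450, minus strand: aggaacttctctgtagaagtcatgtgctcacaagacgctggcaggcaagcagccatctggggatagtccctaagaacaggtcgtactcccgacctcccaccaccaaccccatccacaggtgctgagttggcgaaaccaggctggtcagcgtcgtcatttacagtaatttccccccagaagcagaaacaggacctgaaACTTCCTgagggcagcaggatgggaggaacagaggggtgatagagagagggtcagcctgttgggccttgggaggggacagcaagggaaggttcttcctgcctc
C1qc, chr4:136892865-136893164, minus strand: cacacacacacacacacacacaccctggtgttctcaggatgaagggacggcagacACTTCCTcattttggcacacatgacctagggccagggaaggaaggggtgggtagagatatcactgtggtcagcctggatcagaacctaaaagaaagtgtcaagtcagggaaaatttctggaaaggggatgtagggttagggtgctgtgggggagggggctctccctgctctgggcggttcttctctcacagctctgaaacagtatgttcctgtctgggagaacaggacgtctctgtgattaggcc
Lyz2, chr10:117282223-117282522, minus strand: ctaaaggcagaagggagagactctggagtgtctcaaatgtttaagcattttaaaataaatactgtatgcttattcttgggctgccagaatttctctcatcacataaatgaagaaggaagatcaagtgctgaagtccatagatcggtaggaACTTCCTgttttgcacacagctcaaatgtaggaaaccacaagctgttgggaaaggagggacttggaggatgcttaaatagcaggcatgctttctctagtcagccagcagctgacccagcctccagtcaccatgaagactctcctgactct
F13a1, chr13:37049164-37049463, minus strand: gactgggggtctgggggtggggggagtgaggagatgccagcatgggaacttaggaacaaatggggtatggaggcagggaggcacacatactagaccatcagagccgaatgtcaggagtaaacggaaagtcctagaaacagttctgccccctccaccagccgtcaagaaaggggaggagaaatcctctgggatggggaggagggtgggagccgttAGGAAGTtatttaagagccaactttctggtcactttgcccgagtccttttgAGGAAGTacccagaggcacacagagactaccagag
Mrc1, chr2:14229164-14229463, plus strand: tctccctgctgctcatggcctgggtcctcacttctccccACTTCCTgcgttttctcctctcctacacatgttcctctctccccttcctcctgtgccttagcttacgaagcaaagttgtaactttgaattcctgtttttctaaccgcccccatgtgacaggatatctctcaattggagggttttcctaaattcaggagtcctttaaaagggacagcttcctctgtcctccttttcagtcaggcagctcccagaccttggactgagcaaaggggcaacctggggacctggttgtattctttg
Fcgr3, chr1:171059345-171059644, minus strand: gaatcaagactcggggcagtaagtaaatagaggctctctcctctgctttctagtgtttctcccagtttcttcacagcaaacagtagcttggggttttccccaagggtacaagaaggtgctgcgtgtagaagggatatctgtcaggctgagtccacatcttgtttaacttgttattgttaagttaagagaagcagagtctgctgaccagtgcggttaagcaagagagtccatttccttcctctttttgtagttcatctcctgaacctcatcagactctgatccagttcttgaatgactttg

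C1qa, C1qb and C1qc lie side by side on chromosome 4 (GRCm38), on the minus strand, at 136895917 to 136898803, 136880129 to 136886187 and 136889804 to 136893065. The entry of F13a1 spans 183067 bases of chromosome 13 (36867178 to 37050244), that of Fcgr3 spans 13762 bases of chromosome 1 (171051174 to 171064935), and that of Lyz2 spans 4941 bases of chromosome 10 (117277334 to 117282274). Some reads of these genes could come from a neighbour or a copy. Of all stretches of 54 bases in the exons of Lyz2, 12.9% also occur in its neighbour Lyz1, and 8.89% of those of Fcgr3 occur in Fcgr2b, against 0.105% for F13a1 and 0% for the other 7 genes. The entry of Csf1r spans 71479 bases of chromosome 18 (61105572 to 61177050), past the end of the annotated gene at 61132149. Whether reads past that end counted for Csf1r is unknown. Exons of Csf1r share 873 bases (15.1%) with Hmgxb3 on the opposite strand, and F13a1 shares 74 bases (1.1%) with Gm30489 on the opposite strand. Whether strand was used in the counting is not given in the sources used here.

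Irs1 was checked first. In 7 of 8 genotype comparisons its FPKM was higher in the libraries labelled KO, and in WAT under DR it was lower (2.58 against 6.56 FPKM). Lower Irs1 RNA thus did not mark the groups labelled KO. The intervals of the genotypes overlapped except in brain under DR, with 1.62 FPKM (1.03 to 2.21) in WT_DR and 4.14 (2.41 to 5.87) in KO_DR. KO here always means the groups labelled so, and every genotype direction rests on those labels. At least 1 FPKM was reached by between 12989 and 15181 entries in each group. Each tissue was rich in markers of its own cells. Neuron markers summed to between 1021 and 1512 FPKM in the brain groups, hepatocyte markers to between 51673 and 129458 in the liver groups, muscle fibre markers to between 101654 and 173055 in the skeletal muscle groups and adipocyte markers to between 13184 and 21588 in the WAT groups. Adipocyte markers also reached between 369 and 1332 FPKM in skeletal muscle, and muscle fibre markers between 369 and 977 in WAT.

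In WT_AL mice every one of the 10 genes had its highest FPKM in WAT, and the lowest value was in skeletal muscle for 6, in brain for Cd68, Lyz2 and Mrc1, and in liver for F13a1. WAT was highest for fewer of them in the other conditions, for 6 of 10 in WT_DR, 6 in KO_AL and 7 in KO_DR. Mrc1 and Tyrobp were then highest in liver in all 3, and C1qb in brain (WT_DR and KO_DR) or liver (KO_AL). The strongest gene in WAT of WT_AL was Lyz2, at 474 FPKM (95% interval 259.9 to 688), followed by C1qc at 228 (143 to 312), C1qb at 198 (115 to 281) and C1qa at 189.9 (113 to 267). The receptors and lysosomal genes stood lower, with Fcgr3 at 60.7, Tyrobp at 54.6, Cd68 at 50, Csf1r at 38.5, F13a1 at 29.1 and Mrc1 at 12.4 FPKM. Against skeletal muscle all 10 were higher in WAT at an FDR of 10% by the two-sided Wald test, with log2 differences from -4.19 (Fcgr3) to -2.54 (Mrc1) for muscle less WAT. Among all 15263 entries tested in that pair, 14.9% were called lower in muscle. Against brain 8 of 10 were higher in WAT, where 11.2% of 16040 entries were called in that direction. The exceptions were C1qb (154 FPKM in brain and 198 in WAT, log2 difference -0.36, SE 0.58) and Csf1r (14.2 and 38.5, -1.44, SE 0.68). Against liver 6 of 10 were higher in WAT, where 9.43% of 14902 entries were called in that direction. Mrc1, C1qb, C1qc and Tyrobp were not called between liver and WAT, with log2 differences from -0.97 to -0.25. F13a1 was below 1 FPKM in brain and liver and entered these tests only through the tissue where it was high, and without it 7 of 9 were called against brain and 5 of 9 against liver. All of these tissue calls rest on a normal reference. With a t distribution none of the 10 genes was called in any pair of tissues, and neither was any entry of the whole table. That reference thus does not set the 10 genes apart from other entries.

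**Figure D1:**
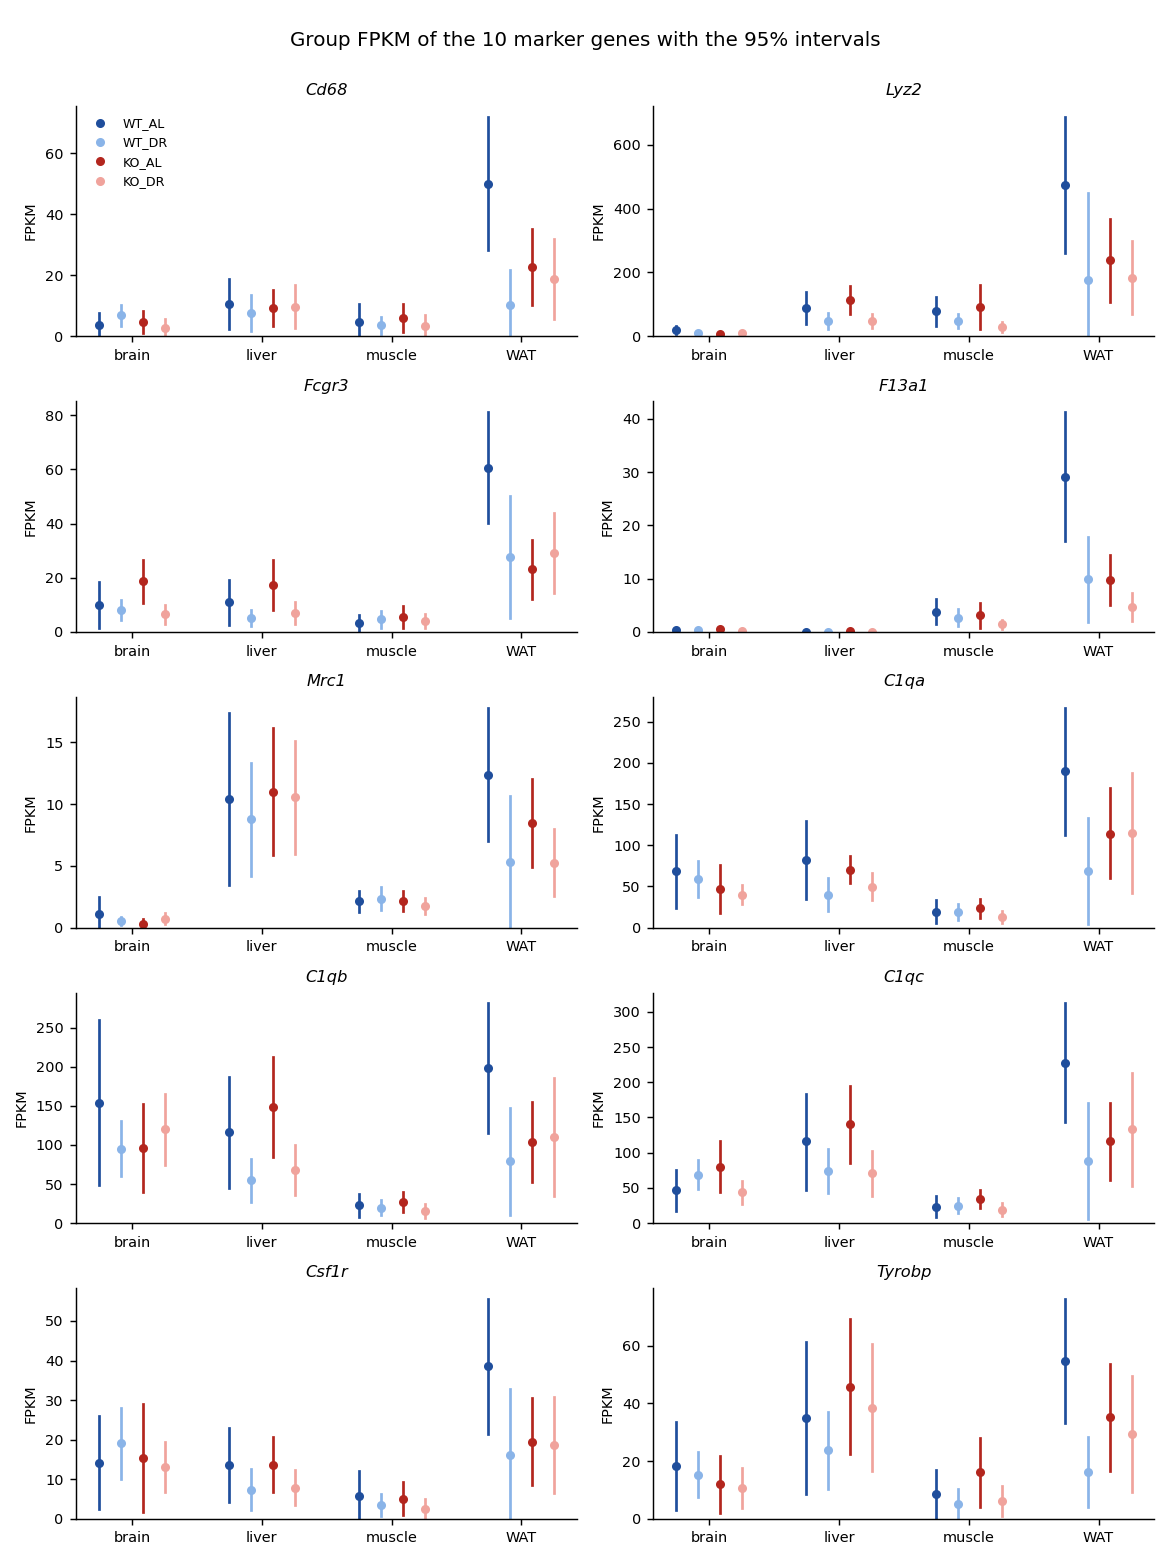
FPKM of each of the 10 marker genes (vertical axes, FPKM, a separate linear scale for each gene) in the 4 tissues (horizontal axes), with a point for each of WT_AL, WT_DR, KO_AL and KO_DR and bars for the deposited 95% intervals. In WAT the WT_AL point is the highest of the 4 for every gene, for Lyz2 at 474 FPKM against 175, 238 and 183.

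The genes differed among themselves in which tissue came next. In WT_AL mice the C1q chains and Mrc1 were higher in liver than in skeletal muscle, C1qb by a log2 difference of 2.36 (SE 0.64) and Mrc1 by 2.29 (SE 0.56). These 4 were the members called in that pair, in which 12.3% of 14201 entries were called higher in liver. C1qa and C1qb were also higher in brain than in skeletal muscle (68.1 against 19.3 FPKM and 154 against 22.7), while Lyz2 and F13a1 were lower in brain than in skeletal muscle (18.9 against 78.4 and 0.309 against 3.80). F13a1 entered that test only through skeletal muscle, where it was high. Without it, 1 of 9 was called lower and 2 of 9 higher in brain. Of 15487 entries tested there, 15.7% were called higher and 9.10% lower in brain. Between brain and liver, Lyz2 (18.9 and 89.3 FPKM) and Mrc1 (1.10 and 10.4) were lower in brain, where 10.3% of 14407 entries were called lower. Fcgr3, C1qa, C1qb, Cd68, C1qc, Csf1r and Tyrobp were not called there.

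F13a1 and Mrc1 were near 0 in some tissues and not in others. F13a1 was between 4.71 and 29.1 FPKM in WAT and between 1.42 and 3.80 in skeletal muscle, but between 0.131 and 0.501 in brain and between 0.0116 and 0.114 in liver. In liver all 4 intervals reached 0, and its liver values are too low for a fold change to be read from them. Mrc1 was between 8.77 and 11 FPKM in liver and between 0.317 and 1.10 in brain. Relative to Csf1r in the same group, Mrc1 lay between 0.0208 and 0.0771 in brain, between 0.282 and 0.434 in WAT, between 0.375 and 0.731 in skeletal muscle and between 0.765 and 1.35 in liver. The ranges of brain and WAT did not overlap with each other or with liver.

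The C1q chains took the larger share in most groups. Lyz2 exceeded their sum in skeletal muscle of WT_AL (1.20 times) and KO_AL (1.07 times) and was below it in the other 14 of 16 groups. In brain the C1q chains made up between 78.4% and 82.1% of the summed FPKM of the 10 genes, in liver between 60.9% and 64.9%, in WAT between 46.1% and 55.3% and in skeletal muscle between 37.9% and 49.3%. Lyz2 took between 2.77% and 5.64% in brain, between 15.4% and 20.0% in liver, between 28.3% and 35.5% in WAT and between 30.5% and 45.6% in skeletal muscle. These shares kept their tissue order between brain, liver and the other tissues in all 4 conditions. The chains were also not at the same ratio everywhere. C1qb was between 1.19 and 3.31 times C1qc in brain, and between 0.829 and 0.898 times C1qc in WAT, where the ratio was nearly the same in the 4 conditions.

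**Figure D2:**
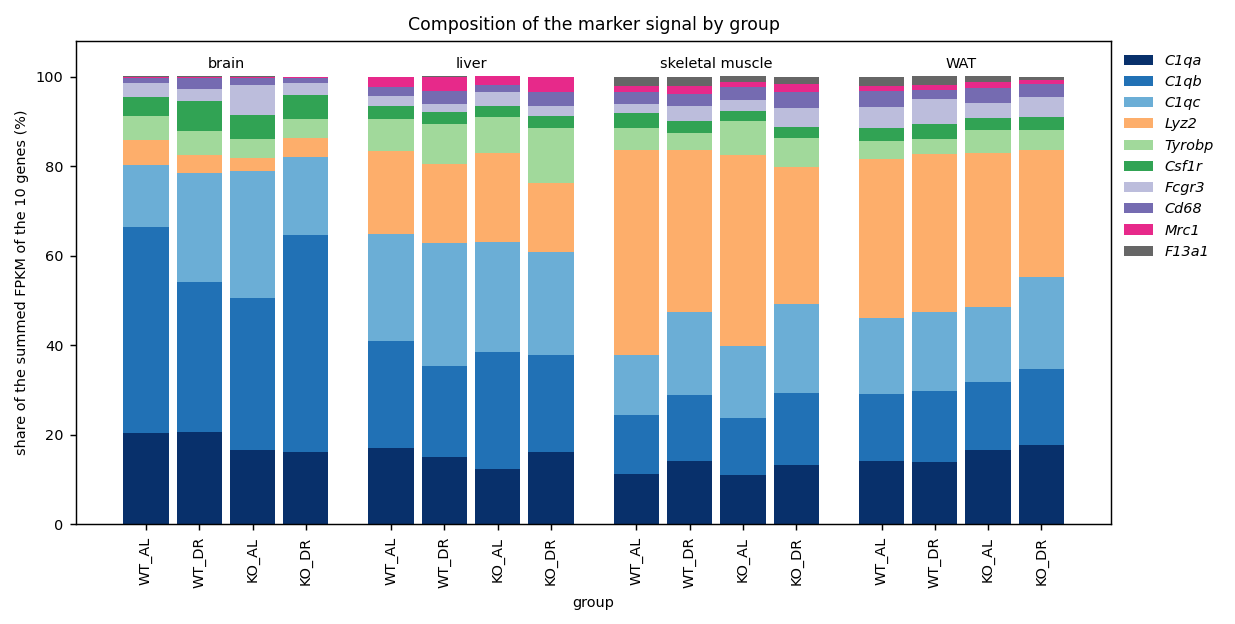
Share of each of the 10 genes (vertical axis, percent of their summed FPKM) in each of the 16 groups (bars), grouped by tissue. The blue C1q segments fill between 78.4% and 82.1% of the bar in brain and between 37.9% and 49.3% in skeletal muscle, where the orange Lyz2 segment reaches 45.6%.

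Markers of resident cells followed the tissues. Of the homeostatic microglia list, Cx3cr1, the fractalkine receptor, was between 18.5 and 27.4 FPKM in brain and at most 2.16 in WAT. Tmem119 (between 11.1 and 21.2 in brain) and Selplg (16.3 to 25) were present in brain but not restricted to it, since Tmem119 was between 12.3 and 20.2 and Selplg between 9.68 and 22.8 FPKM in WAT. Sall1, also on that list, was between 5.65 and 7.78 FPKM in brain. In WAT Sall1 was 0.132 FPKM (0 to 0.270) in WT_AL and 3.75 (1.29 to 6.22) in KO_AL, with 0.0836 in WT_DR and 0.330 in KO_DR. The Kupffer cell list summed to between 109.9 and 173 FPKM in liver, to between 21.4 and 38.0 in WAT and to at most 0.313 in brain. Clec4f, a lectin of Kupffer cells, was between 31.2 and 45.0 FPKM in liver and below 1 in WAT and brain, Cd5l was between 45.9 and 93.6 in liver, and Vsig4 between 18.1 and 22.5. The WAT sum rested on Folr2, at between 14.5 and 32.7 FPKM.

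In WAT, all 10 genes had a lower FPKM in KO_AL than in WT_AL mice, and 2 of them were differentially expressed. F13a1 was 29.1 FPKM (17.0 to 41.2) in WT_AL and 9.81 (5.06 to 14.5) in KO_AL, with intervals that did not overlap, and Fcgr3 was 60.7 (40.2 to 81.1) and 23.1 (12.0 to 34.1), again without overlap. Of 15481 entries, 271 had intervals without overlap in either direction. F13a1 was down-regulated 2.97-fold (log2 difference -1.57, SE 0.46, adjusted p of 0.059) and Fcgr3 2.63-fold (-1.39, SE 0.42, adjusted p of 0.08), by the Wald test with Benjamini-Hochberg adjustment over 15481 entries, of which 0.245% were called lower. The median log2 difference of the 10 genes was -0.98, against -0.06 over all entries tested, of which 54.8% were lower. Cd68 (50 and 22.7 FPKM), C1qc (228 and 116) and C1qb (198 and 104) were at an unadjusted p under 0.05 with log2 differences of -1.14, -0.98 and -0.93, but had adjusted p values of 0.75, 0.74 and 1. Such an unadjusted p was reached by 4.48% of all entries in either direction. For Lyz2 (474 and 238), Csf1r (38.5 and 19.5), C1qa (189.9 and 114), Tyrobp (54.6 and 35.2) and Mrc1 (12.4 and 8.47) the log2 differences lay between -1.0 and -0.55. At an FDR of 5% 0 of 10 were called, with 162 entries of the whole table. With a t distribution 0 of 10 were called, and no entry of the whole table was called either. Without the filter on low FPKM or after centring on the median 1 of 10 was called, with 186 and 212 entries. With the smaller SE (the SD divided by the square root of the number of libraries) 7 of 10 and 920 of 15481 entries were.

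In wild type WAT the 10 genes were also lower under DR, with wide intervals. Of the members called in KO_AL, Fcgr3 was 27.7 FPKM (5.13 to 50.3) in WT_DR (log2 difference -1.13, SE 0.64) and F13a1 9.87 (1.88 to 17.9). WT_DR mice had the lowest FPKM of the 4 groups for 7 of the 10 genes: Cd68 was 10.2 (0 to 21.7), Tyrobp 16.2 (4.20 to 28.3), Lyz2 175 (0 to 449.8), C1qa 68.7 (4.24 to 133), C1qb 78.8 (10.3 to 147), C1qc 87.9 (5.53 to 170.2) and Csf1r 16 (0 to 32.9). For 4 of the 10 genes (Cd68, Lyz2, Mrc1 and Csf1r) the interval of WT_DR reached 0, and the SD was between 37.1% and 78.3% of the FPKM, against 16.8% to 22.6% in WT_AL. The intervals of WT_DR and WT_AL did not overlap for Cd68 and Tyrobp, and for 174 of 14925 entries of the whole table in either direction. All 10 genes were lower than in WT_AL, by a median of -1.40 on the log2 scale against -0.17 over all entries, of which 59.2% were lower, and none of the 10 was called, while 0.308% of 14925 entries were called lower. The largest differences were those of Cd68 (-2.29, SE 0.87, adjusted p of 0.63), Tyrobp (-1.75, SE 0.61, adjusted p of 0.4) and F13a1 (-1.56, SE 0.66, adjusted p of 0.91). At an unadjusted p under 0.05 there were 4 of 10, against 3.56% of all entries in either direction. With the smaller SE 3 of 10 were called, namely Cd68, F13a1 and Tyrobp, with 410 of 14925 entries.

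Between the diets in KO mice the direction in WAT was mixed. Against KO_AL, KO_DR was lower for 6 of 10 and higher for 4, with a median log2 difference of -0.16 and none called, while 0.707% of 15552 entries were called in either direction. The C1q chains were 114 and 115 FPKM (C1qa), 104 and 110.2 (C1qb) and 116 and 133 (C1qc) in KO_AL and KO_DR. F13a1 went from 9.81 to 4.71 FPKM, the largest difference of the 10 (-1.06, SE 0.53, adjusted p of 1). Against WT_DR, 8 of 10 were higher and F13a1 and Mrc1 lower (median 0.36), with none called and 0.283% of 14820 entries called in either direction. The interaction (KO_DR less WT_DR, minus KO_AL less WT_AL) was positive for all 10, from 0.50 (F13a1) to 2.02 (Cd68) with a median of 1.44 against 0.13 over all entries, and was not called for any of the 10 (0.121% of 15727 entries called). The comparison of KO_DR with WT_AL was added after the values were seen. In WAT all 10 were lower, with a median of -1.05 against -0.04 over all entries. F13a1 was down-regulated 6.17-fold there (29.1 to 4.71 FPKM, -2.63, SE 0.50, adjusted p of 7.7e-05), the only one of the 10 called, with 0.524% of 15271 entries called lower. The direction was not particular to WAT. In brain 9 of 9 tested genes were lower (median -0.59 against 0.15 over all entries), in skeletal muscle 9 of 10 (-0.52 against -0.04) and in liver 7 of 9 (-0.71 against 0.12), with none called in these 3 tissues (0.105%, 0.875% and 0.272% of all entries called). In each tissue the 3 comparisons with WT_AL share its 2 libraries, and their directions are not independent of each other.

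**Figure D3:**
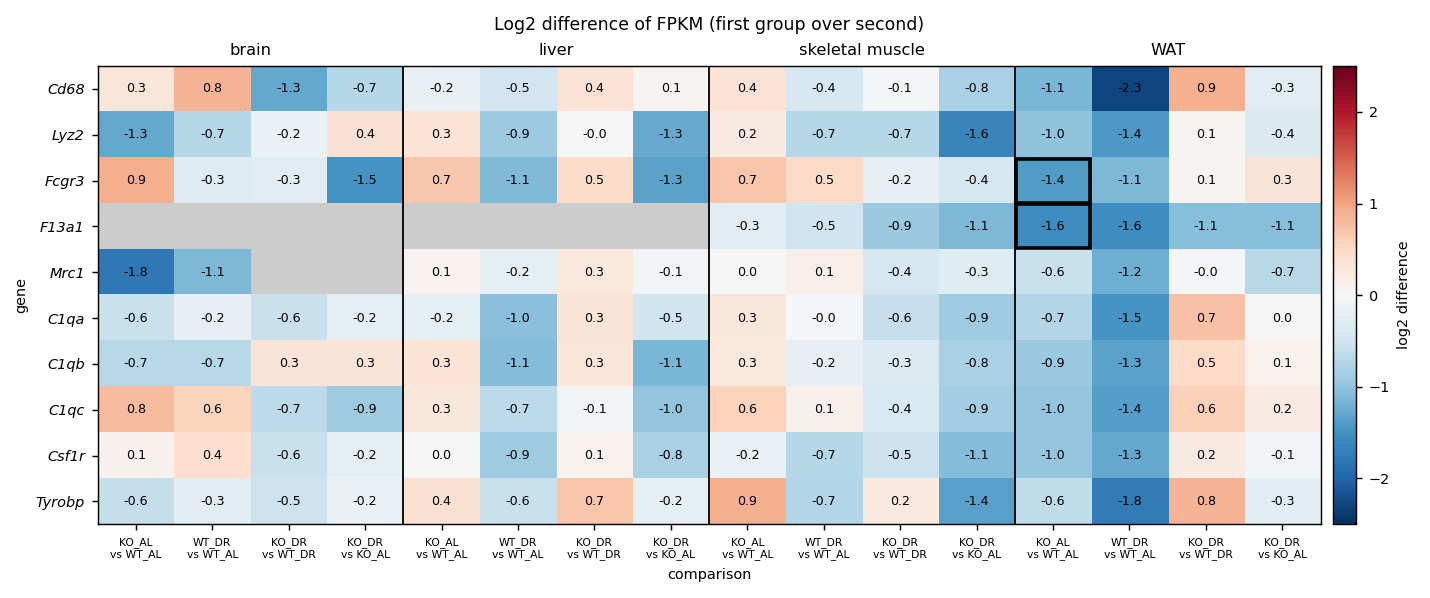
Log2 differences of FPKM (colour and printed value, first group less second) of the 10 genes (rows) in 4 comparisons in each of the 4 tissues (columns). Black frames mark the 2 differences called at an FDR of 10%, Fcgr3 and F13a1 in WAT for KO_AL against WT_AL, and grey cells were not tested because the FPKM was below 1 in both groups.

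The size of the WAT difference was tested against that in the other tissues. For the genotype difference under AL, WAT less skeletal muscle was negative for all 10 genes (median -1.25), WAT less liver for 9 of 9 (median -1.03) and WAT less brain for 7 of 9 (median -0.24), with F13a1 left out of the last 2 because it was below 1 FPKM in liver and brain, and with none called in any of the 3 pairs (0.290%, 0.0851% and 0.110% of all entries called). Fcgr3 had differences of -2.09 (SE 0.94), -2.06 (SE 0.79) and -2.30 (SE 0.81). For the diet difference in wild type, WAT less skeletal muscle was negative for all 10 (median -1.23), and WAT less liver and WAT less brain for 9 of 9 (medians -0.53 and -1.26, again without F13a1), with none called. At this precision a difference between WAT and the other tissues was not detectable for any of the 10 genes, and the diet pairs had 0.324%, 0.0531% and 0.0435% of all entries called.

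Most other macrophage genes in WAT had lower values in the same groups. Of 18 further macrophage genes, 16 were lower in KO_AL than in WT_AL (median -0.72, none called), 18 of 18 were lower in WT_DR (median -1.57, 1 called) and 17 of 18 were higher in KO_DR than in WT_DR (median 0.53, 1 called). Lgmn, the lysosomal protease legumain, was the gene called: it was 21.5 FPKM in WT_AL, 8.08 in WT_DR, 16.5 in KO_AL and 17.3 in KO_DR, down-regulated by DR in wild type (-1.41, SE 0.32, adjusted p of 0.0027) and higher in KO_DR than in WT_DR (1.10, SE 0.29, adjusted p of 0.075). Ctss, cathepsin S, was not called and was 66.2 FPKM in WT_AL, 9.60 in WT_DR, 30.1 in KO_AL and 21.6 in KO_DR, the same order as Cd68. Mpeg1, perforin-2 of macrophages, was 24.4, 8.20, 15.3 and 10.1 and also highest in WT_AL. Of the genes for monocyte chemokines, Ccl6 was 179.6, 27.0, 52.7 and 34.0 FPKM in WT_AL, WT_DR, KO_AL and KO_DR and was down-regulated in KO_AL (-1.77, SE 0.51, adjusted p of 0.05). Of the 8 genes of lipid-associated macrophages, 6 were lower in KO_AL (median -0.71) and all 8 in WT_DR (median -1.61), with none called. Lgals3, galectin 3, was 182, 147, 82.7 and 120.1 FPKM, and Mmp12, macrophage elastase, was 16.4, 0.366, 1.19 and 1.37. Cd9, a tetraspanin, was 11.9, 4.36, 28.1 and 12.2 and thus higher in KO_AL than in WT_AL, without being called.

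Complement proteins, ligands and receptors that work with the 10 were counted as well. Among 14 tested partners of the members in WAT, 10 were lower in KO_AL (median -0.62) and all 14 in WT_DR (median -0.63), with none called. Serping1, the C1 inhibitor, was 326, 160.3, 172 and 163 FPKM in WT_AL, WT_DR, KO_AL and KO_DR, C4b was 154, 56.2, 70.9 and 63.2, and C3 was 219, 211, 243 and 251. Fcgr4, a further IgG receptor, was the gene called, higher in KO_DR (2.46 FPKM) than in WT_DR (0.894; 1.46, SE 0.26, adjusted p of 2.1e-05).

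Markers of other cells also differed between the WAT groups. All 6 endothelial markers were lower in KO_AL (median -0.55) and in WT_DR (median -0.99), with none called and sums of 244, 122, 176 and 142 FPKM in WT_AL, WT_DR, KO_AL and KO_DR. T cell and B cell markers were lower in WT_DR (medians -0.77 and -1.05) but not in KO_AL (0.36 and 0.67). Adipocyte markers summed to 19464, 21588, 13184 and 16575 FPKM. In the same order fibroblast markers summed to 637, 656, 695 and 658 FPKM, and mast cell markers to 34.3, 19.1, 60.6 and 23.7. RNA of other tissues differed as well. Myh4, a fast myosin heavy chain of muscle, was 0.0699 FPKM in WT_AL, 20.6 in WT_DR, 55.0 in KO_AL and 30.3 in KO_DR, and Krt18, an epithelial keratin, was 2.54, 3.61, 35.3 and 34.2. Hepatocyte markers summed to 640.0, 357, 604 and 91.9 FPKM, and red blood cell markers to 6863, 12269, 4297 and 21030. Their part in the result was not tested.

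**Figure D4:**
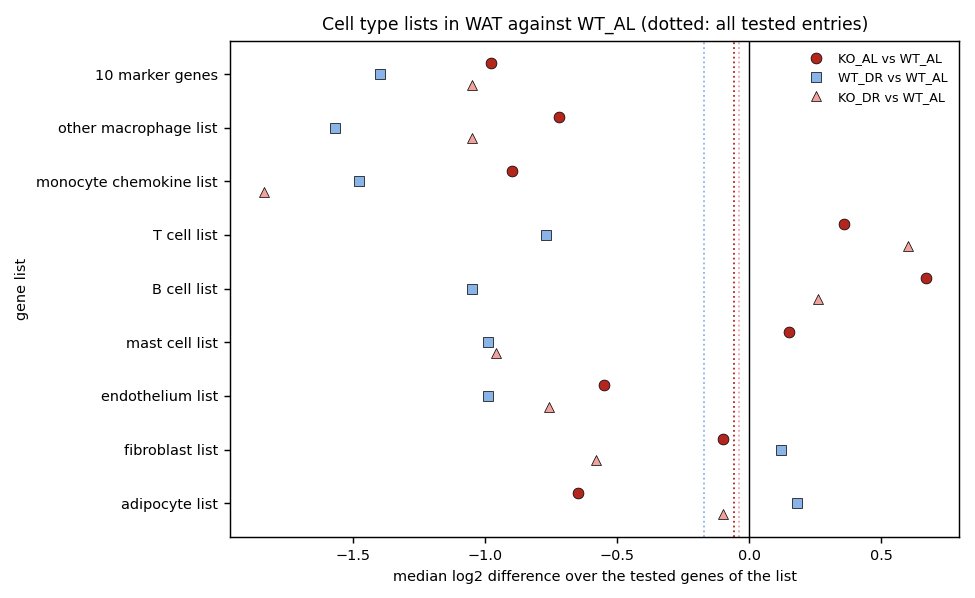
Median log2 difference in WAT (horizontal axis) over the tested genes of each list (rows) for KO_AL, WT_DR and KO_DR against WT_AL, with dotted lines for the median over all tested entries. The 10 marker genes lie at -0.98, -1.40 and -1.05, while the B cell list lies at 0.67, -1.05 and 0.26.

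In liver, most of the 10 genes had a lower FPKM under DR in both genotypes, and none was called. In wild type, 9 of 9 tested genes were lower (median -0.89 against 0.03 over all entries, 0.236% of them called), with C1qb at 116 FPKM in WT_AL and 55.0 in WT_DR, C1qa at 82.2 and 40.0, Fcgr3 at 10.9 and 5.04 and Lyz2 at 89.3 and 47.5. F13a1 was not tested. In KO mice, 8 of 9 were lower (median -0.81 against -0.03), while Cd68 was 9.32 FPKM in KO_AL and 9.71 in KO_DR. Lyz2 was 114 (68.6 to 159) in KO_AL and 47.5 (25 to 70.0) in KO_DR, with intervals that met only between 68.6 and 70.0 (log2 difference -1.26, SE 0.45, adjusted p of 0.42). Fcgr3 (17.3 and 6.87 FPKM, -1.34, SE 0.57), C1qb (148 and 67.5, -1.14, SE 0.46) and C1qc (140.4 and 70.9, -0.99, SE 0.43) made up the rest of the 4 genes at an unadjusted p under 0.05, which 2.87% of all entries reached in either direction. With the smaller SE 5 of 9 and 660 of 13747 entries were called, while the larger SE called none of the 9 and 0.611% of all entries. The genotype differences had medians of 0.28 under AL and 0.30 under DR, with 7 of 9 genes higher in the group labelled KO in each and none called (0.316% and 0.288% of all entries called). The liver interaction had a median of 0.07, with none called (0.0860%).

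Markers of Kupffer cells differed among themselves in liver. Mrc1, a member that is not on the Kupffer cell list, was 10.4, 8.77, 11 and 10.6 FPKM in WT_AL, WT_DR, KO_AL and KO_DR. Clec4f was 45.0, 31.2, 42.4 and 35.2, Vsig4 was 20.4, 20.2, 22.5 and 18.1, and Cd5l, a secreted macrophage protein, was 93.6, 45.9, 92.9 and 49.4. Of 6 Kupffer cell genes, 5 were lower under DR in each genotype, with medians of -0.41 and -0.29 and none called. Hepatocyte markers summed to 51673, 121045, 106192 and 129458 FPKM in WT_AL, WT_DR, KO_AL and KO_DR, higher under DR in both genotypes, where most members were lower. Neutrophil markers summed to 21.0, 14.7, 87.4 and 34.1 and red blood cell markers to 2681, 3469, 13569 and 12047. Their part in the result was not tested.

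In skeletal muscle, all 10 genes were lower in KO_DR than in KO_AL (median -0.88 against 0.03 over all entries), with none called and 0.500% of 14008 entries called. Lyz2 was 78.4 FPKM in WT_AL, 48 in WT_DR, 91.5 in KO_AL and 29.2 in KO_DR (KO_DR less KO_AL -1.65, SE 0.65, adjusted p of 1), and C1qc was 23.3, 24.9, 34.7 and 19.1 (-0.86, SE 0.44). Tyrobp was 8.71, 5.26, 16.1 and 6.25 FPKM. In wild type 7 of 10 were lower under DR (median -0.30), and the interaction was negative for all 10 (median -0.63), with none called in either (1.40% and 0.371% of all entries called). Against WT_AL, KO_AL was higher for 8 of 10 (median 0.27), and against WT_DR, KO_DR was lower for 9 of 10 (median -0.40), with none called (0.681% and 2.23% of all entries called). For the median of the 10 the interaction thus had the opposite sign in skeletal muscle (-0.63) and WAT (1.44), but the difference was not tested and no single gene passed in either tissue.

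Other markers also differed between the skeletal muscle groups. Muscle fibre markers summed to 101654, 173055, 108986 and 168771 FPKM in WT_AL, WT_DR, KO_AL and KO_DR, higher under DR in both genotypes, and adipocyte markers to 1319, 369, 1072 and 1332. S100a9, a calcium-binding protein abundant in neutrophils, was 3.13, 13.9, 364 and 17.3 FPKM in WT_AL, WT_DR, KO_AL and KO_DR, and S100a8 was 0.703, 5.79, 148 and 8.32. S100a9 was up-regulated in KO_AL (6.86, SE 1.24, adjusted p of 2.5e-05) and down-regulated in KO_DR against KO_AL (-4.40, SE 0.80, adjusted p of 1.7e-05). The 8 neutrophil markers summed to 4.41, 22.7, 639.9 and 30.6 FPKM. Hepatocyte markers summed to 2378 FPKM in WT_DR and to between 19.1 and 98 in the other groups, and there Clec4f, near 0 elsewhere in muscle, was 1.99 FPKM. B cell markers summed to 37.3 FPKM in WT_AL and to between 4.85 and 9.33 in the other groups. Of the further macrophage genes, 13 of 15 tested were lower in KO_DR than in KO_AL (median -1.28, none called) and 14 of 15 lower in WT_DR than in WT_AL (median -0.91), where Cd53, a leukocyte tetraspanin, was down-regulated from 3.80 to 0.824 FPKM (-2.21, SE 0.50, adjusted p of 0.0015). The part of these other markers in the values of the 10 genes was not tested.

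In brain, the direction of the 10 genes depended on the comparison: mixed for KO_AL against WT_AL, and lower for most under KO_DR. Between KO_AL and WT_AL 5 of 9 tested genes were lower and none was called (0.203% of all entries called). The median log2 difference of the 9 was -0.55 against 0.13 over all entries. C1qc was 80.3 against 46.6 FPKM, C1qb 95.9 against 154, Fcgr3 18.7 against 9.95 and Lyz2 7.82 against 18.9. Between WT_DR and WT_AL 6 of 9 were lower (median -0.26), and between KO_DR and WT_DR 7 of 8 (median -0.53 against 0.23 over all entries), with none called (0.224% and 1.16% of all entries called). The brain interaction was negative for 5 of 9, with none called (0.396%). The brain difference with the lowest unadjusted p was Fcgr3 in KO_DR against KO_AL, at 6.58 FPKM (3.06 to 10.1) and 18.7 (10.7 to 26.6) with intervals that did not overlap (-1.50, SE 0.49, adjusted p of 0.4). Of 15349 entries, 0.365% were called in that comparison and 111 had intervals without overlap. C1qb and C1qc, which encode chains of the same molecule, went opposite ways there, C1qb from 95.9 to 120.0 FPKM and C1qc from 80.3 to 43.7 (-0.88, SE 0.43, adjusted p of 1). Csf1r was between 13.1 and 19.1 FPKM and Tyrobp between 10.7 and 18.2, with overlapping intervals in all 4 groups. Of the lipid-associated list, Spp1, osteopontin, was called in brain: it was 38.6, 5.09, 9.05 and 16.3 FPKM in WT_AL, WT_DR, KO_AL and KO_DR (WT_DR less WT_AL -2.92, SE 0.56, adjusted p of 0.00018). Red blood cell markers summed to 1032, 971, 9907 and 3475 FPKM in these groups and their part in the result was not tested.

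The genes varied together across the groups once the tissue mean was taken out. Over the 16 groups, with the mean log2(FPKM + 1) of each tissue subtracted, the 45 pairs among the 10 genes had Pearson correlations from 0.31 to 0.91 (median 0.68). Against the mean of the other 9, Csf1r reached 0.91 and C1qa 0.90, while Fcgr3 was at 0.64 and F13a1 at 0.66. The 16 values come from groups that share tissues and RNA composition, and the correlations are descriptions. The mean profile of the 10 genes was highest in WAT of WT_AL (0.89 above the tissue mean) and lowest in WAT of WT_DR (-0.55). Of 9378 entries with an FPKM of at least 1 in all groups, those most like it were Colgalt1 (0.87), Dnajc8 (0.85), Trp53inp2 (0.85), RP23-466K3.1 (0.84), Cfp (0.83), Pafah1b1 (0.83), Ctss (0.83), Entpd1 (0.82), Spi1 (0.81) and Tmem106b (0.81), against a median of 0.00 over all entries. Spi1, which encodes PU.1, was 24.0, 6.17, 11.1 and 8.95 FPKM in WAT of WT_AL, WT_DR, KO_AL and KO_DR, and Cfp, properdin of the alternative complement pathway, was 68.3, 26.5, 29.1 and 35.2. Without the WAT groups 3 of these 10 entries stayed among the 10 most alike.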

How the data were processed

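RNA sequencing was done on an Ion Proton instrument, in female mice. The authors trimmed reads with cutadapt 1.5, aligned them to GRCm38 with BBmap and ran Cuffdiff 2.2.1 (versions per the submitters' processing notes), and deposited its table of FPKM values per gene and group with 95% confidence intervals and a status. The deposited FPKM values are scaled to transcript length and mapped fragments and pool the libraries of a group, so the depth per library is unknown and precision is that of the authors' interval. By the methods the libraries were also normalised with a geometric mean over samples. The labels give 2 WT_DR libraries in WAT, where the methods give 3.

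Calculations used Python 3.11.15, numpy 2.4.6, pandas 2.3.3, scipy 1.17.1 and matplotlib 3.10.9. The SD was the upper bound less the FPKM, divided by 2. Log2 ratios of FPKM, without a pseudocount, were tested with a two-sided Wald test (normal reference, SE by the delta method) on all entries with status OK, an FPKM above 0 in every group compared and at least 1 in one of them, with Benjamini-Hochberg adjustment over all entries within a comparison. Genes are called differentially expressed at an FDR of 10%. The methods give the replicates as mice and take the 4 tissues from the same groups of mice, and the tissue comparisons, made on group values, treat the tissues as independent. The p-values measure the spread that Cuffdiff estimated between libraries.

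The 10 genes and the lists of other genes were chosen with earlier results of these data known. Text values were limited to the 10 genes, Irs1, at most 4 genes per list (called ones first, else the highest) and the 10 entries most like the members. Hmgxb3, Gm30489, Lyz1 and Fcgr2b are named for overlap only. In 3 lists and the partner list 1 gene each lay in an entry joined with other genes and was not used. Promoters and shared exons come from RefSeq GRCm38.p6 and the GENCODE annotation of GRCm38. Alternatives tried were a stricter FDR (5%), calls by non-overlapping intervals, a t in place of the normal reference, added pseudocounts (0.1 or 1), no minimum FPKM or one of 5, centring on the median, leaving out joined entries, and a smaller SE (SD divided by the square root of the number of libraries). Leaving out members below 1 FPKM in a tissue was added after the data were seen.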

Additional observations from a re-analysis of the deposited data

How the results depend on the processing

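Directions were compared under the alternatives only for member differences that were called or had an unadjusted p under 0.05. None of these reversed, and the other directions were not checked. Counts of the 10 genes called depended mostly on the assumed error. With the smaller SE, 7 members were called in WAT for KO_AL against WT_AL (with 920 of 15481 entries of the whole table) and 3 for diet in wild type (410 of 14925). Also in WAT, 1 was called for diet in KO (1149 of 15552) and 6 for KO_DR against WT_AL (1418 of 15271). In liver 5 were called for diet in KO (660 of 13747). In skeletal muscle it was 2 for genotype under DR (1505 of 14021), 2 for diet in KO (377 of 14008) and 2 for KO_DR against WT_AL (1303 of 14054). In brain it was 3 for genotype under DR (2826 of 15262), 2 for diet in KO (664 of 15349) and 1 for the interaction (807 of 15655). The smaller SE also called 2, 1 and 2 for the genotype difference under AL in WAT less that in brain, liver and skeletal muscle. Of all entries it called 357 of 16341, 300 of 15279 and 375 of 15856 there. For diet in wild type in WAT less brain it called 1 member and 94 of 16104 entries. Between brain and liver of WT_AL it called 4 members and 5579 of 14407 entries, and between liver and skeletal muscle 7 members and 5258 of 14201 entries. With a t distribution 0 were called in any of the 6 tissue pairs, in WAT for KO_AL against WT_AL and for KO_DR against WT_AL. No entry of the whole table was called with it in the first 2 cases, and 2 entries were in the last. These counts therefore do not set the 10 genes apart. For KO_AL against WT_AL in WAT, 0 were called at an FDR of 5%, 1 without the filter and 1 after centring on the median (162, 186 and 212 entries). Calls by intervals that do not overlap gave 1 for diet in KO in brain (111 of 15349 entries) and 2 for diet in wild type in WAT (174 of 14925 entries). A pseudocount of 1 called 1 for diet in KO in brain (with 308 entries of the whole table). It also called 1 each for the genotype difference under AL in WAT less brain (495 entries) and less liver (458 entries). A pseudocount of 0.1 called 1 for the latter (497 entries). Leaving out F13a1, below 1 FPKM in brain and liver, changed the median for WAT less brain under AL from -0.66 to -0.24 and kept it below 0. The cause was not tested, beyond the size of the SE and the reference distribution themselves. Of the 10 entries most like the genes, 5 stayed among the 10 with at least 5 FPKM in all groups, and 3 with the 12 groups outside WAT. No paired analysis was possible because the table holds 1 value per group and none per library, and leaving out each replicate could not be run for the same reason. With 2 or 3 libraries per group and unknown depth, the intervals limit what can be told apart.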
